A study of Homo sapiens with 12 samples.

Results

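L1CAM, NRCAM, CNTN1 and ALCAM are 4 genes for cell adhesion molecules of the immunoglobulin superfamily. They were followed across 12 RNA libraries of a human multiple myeloma line, and they are 4 of the 60504 features in the deposited table. They were chosen by name, with earlier results of these libraries known, namely the levels of L1CAM, NRCAM and CNTN1 in the WT and TKO groups. Their change between those groups is therefore a description here and carries no test. All 4 passed the filter on low values and are among the 14391 genes tested.

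The cells were TKO cells, a derivative of the t(4;14) myeloma line KMS-11 with the genotype label WHSC1(+/-), where WHSC1 is an older name of NSD2. NSD2 is a histone methyltransferase that acts on lysine 36 of histone H3. D1240A cells were TKO cells with an expression vector for NSD2 p.D1240A, F1295A cells carried a vector for NSD2 p.F1295A, WT cells carried a vector for the wild-type protein, and TKO cells had no vector. All 4 groups share the TKO background, each had 3 libraries labelled as biological replicates, and the question set by the design was how mutant NSD2 alters gene expression. Cells with an empty vector were not analysed here, so in each comparison with TKO the NSD2 protein and the presence of a vector cannot be told apart. The labels do not say whether a line was 1 clone, or whether replicates were separate cultures, so the p-values measure the spread between these libraries only.

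L1CAM is the founding member of the L1 family, to which NRCAM also belongs. These proteins span the membrane, bind one another and other immunoglobulin-type molecules outside the cell, and bind ankyrins and, in L1CAM, ezrin-type proteins and shootin inside it. Contactins such as CNTN1 lack a cytoplasmic part, are held by a lipid anchor and act with L1-type and CASPR-type partners, best known from axons and nodes of Ranvier. ALCAM, or CD166, is a ligand of CD6 on T cells and is expressed by many cell types outside the nervous system. L1CAM and ALCAM are also released from the surface by ADAM proteases.

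The upstream sequences of the 4 genes are shown because L1CAM and NRCAM moved together in these libraries while CNTN1 moved the other way. Each is the stretch of 250 bases before the RefSeq start listed first for the gene, written 5′ to 3′ on the gene's own strand. For L1CAM, start 2 lies slightly further upstream than start 1, which is the one shown. Capitals mark matches, on either strand, to a GC box (GGGCGG) or to an E-box of the Snail-bound type (CAGGTG).
L1CAM upstream, GRCh38.p14, chrX:153875945-153876194, minus strand: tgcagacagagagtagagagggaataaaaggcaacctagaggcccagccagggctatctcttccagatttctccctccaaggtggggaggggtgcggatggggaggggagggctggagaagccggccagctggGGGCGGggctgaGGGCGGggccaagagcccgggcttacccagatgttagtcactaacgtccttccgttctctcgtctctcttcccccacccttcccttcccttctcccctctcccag
NRCAM upstream, GRCh38.p14, chr7:108456437-108456686, minus strand: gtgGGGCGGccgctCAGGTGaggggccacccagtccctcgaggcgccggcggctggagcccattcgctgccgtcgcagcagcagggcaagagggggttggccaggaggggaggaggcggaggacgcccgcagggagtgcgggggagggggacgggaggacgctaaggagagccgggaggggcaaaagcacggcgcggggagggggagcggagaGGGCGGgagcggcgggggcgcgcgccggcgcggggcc
CNTN1 upstream, GRCh38.p14, chr12:40827934-40828183, plus strand: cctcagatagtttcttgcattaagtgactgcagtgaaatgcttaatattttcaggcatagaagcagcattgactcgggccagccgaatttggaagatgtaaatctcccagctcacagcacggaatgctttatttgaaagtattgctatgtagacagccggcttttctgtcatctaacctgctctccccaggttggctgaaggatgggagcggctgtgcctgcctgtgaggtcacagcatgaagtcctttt
ALCAM upstream, GRCh38.p14, chr3:105366659-105366908, plus strand: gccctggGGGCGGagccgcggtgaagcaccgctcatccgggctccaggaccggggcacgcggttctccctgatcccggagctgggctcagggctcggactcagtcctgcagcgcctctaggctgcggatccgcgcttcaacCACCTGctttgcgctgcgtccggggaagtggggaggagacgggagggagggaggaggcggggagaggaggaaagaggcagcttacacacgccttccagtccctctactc
The sequence before NRCAM was 78.4% G and C with 29 CpG dinucleotides, and that before ALCAM was 68.8% with 20. L1CAM had 62.4% and 8 CpG, and CNTN1 had 47.2% and 5, against medians of 58% and 11 over the 35116 promoters of the same table. L1CAM and NRCAM each held 2 GC boxes, ALCAM held 1 and CNTN1 held none, where 42.6% of all promoters hold at least 1. NRCAM and ALCAM each held 1 E-box, as do 17.5% of promoters. The core recognised by TCF-type factors (CTTTGA), present in 11.2% of promoters, was in none of the 4 stretches shown. RefSeq lists further starts for 3 of the genes, 2 in all for L1CAM, 3 for NRCAM and 2 for CNTN1. The stretches before the other NRCAM starts held no GC box and no E-box, and that before start 3 held 1 CTTTGA. These matches describe letters and not sites in use. The start lies 281 bases inside the GENCODE 29 gene for NRCAM and at its first base for ALCAM. It lies 10230 bases inside for L1CAM and 135742 bases inside for CNTN1. Which start the cells use was not measured, so the stretches of L1CAM and CNTN1 may not lie at a promoter in use. Their GC and CpG values are therefore not read as a difference between promoters.

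Values are FPKM, fragments scaled by gene length and library total, after rescaling between libraries. Differences are on the scale of log2(FPKM + 0.5), which understates the change of low genes, and come with the standard error of the fit. The depth of the libraries is unknown, so no counting error is given. The libraries held 11963 to 12297 genes at 1 FPKM or more. In D1240A replicate 2, features of ribosomal RNA made up 51.4% of the FPKM sum, against 0.133% to 0.995% in the other 11 libraries, so results that use D1240A are also given without it. NSD2 itself was at 251 ± 8.44 FPKM in D1240A, 164 ± 6.56 in F1295A, 190 ± 3.88 in WT and 60.1 ± 2.26 in TKO (mean ± SD, n = 3 each). By limma over all genes, NSD2 was higher in each vector line than in TKO, by 2.05 in D1240A (adjusted p = 1.1e-11), by 1.44 in F1295A (adjusted p = 1.5e-10) and by 1.66 in WT (adjusted p = 5.1e-11). It was also higher in D1240A than in WT, by 0.39 (adjusted p = 5.3e-05). In F1295A against WT it differed by -0.22 (adjusted p = 0.0138), a call lost without rescaling (-0.24, adjusted p = 0.204) and without WT replicate 1 (0.0535), WT replicate 3 (0.0633), F1295A replicate 2 (0.0664) or F1295A replicate 3 (0.0583). The table holds 1 NSD2 value per library, so transcripts of the vector and of the chromosome cannot be told apart, and the part of these NSD2 levels in the results that follow was not tested.

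L1CAM (ENSG00000198910, chrX:153861514-153886174 in GRCh38, minus strand) was highest in TKO and lowest in WT, with both mutants between. Its level was 8.70, 8.23 and 9.02 FPKM in the D1240A libraries. The F1295A libraries had 4.46, 4.34 and 5.36 FPKM, the WT libraries 3.86, 2.7 and 3.42 FPKM, and the TKO libraries 16.7, 16.3 and 17.1 FPKM. No library of one group reached the range of another, so the order TKO, D1240A, F1295A, WT held library by library. The share of all tested genes that keep the 4 groups apart in this way was not counted, here or for the genes below. The mean in D1240A was 51.8% of the TKO mean, that in F1295A 28.3% and that in WT 19.9%. On the log2 scale the difference from TKO was -0.91 in D1240A, -1.72 in F1295A and -2.18 in WT, with a standard error of 0.10 for each. In these bulk samples, fewer cells that express a gene and less of its RNA per cell cannot be told apart.

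NRCAM (ENSG00000091129, chr7:108147623-108456717, minus strand), the other L1-family member with measurable RNA, followed the same order over a narrower range. Its level was 12.5, 13.2 and 14.1 FPKM in D1240A and 10.6, 10.6 and 9.54 FPKM in F1295A. It was 8.80, 8.35 and 9.19 FPKM in WT and 21.2, 20.3 and 20.1 FPKM in TKO. The groups again did not overlap, although the lowest F1295A library lay only slightly above the highest WT library. Means were 64.6% of TKO in D1240A, 49.8% in F1295A and 42.7% in WT. The log2 difference from TKO was -0.61 in D1240A, -0.97 in F1295A and -1.18 in WT, with a standard error of 0.06.

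CNTN1 (ENSG00000018236, chr12:40692442-41072418, plus strand) ran in the opposite order and was nearly silent without a vector. Its level was 3.73, 3.15 and 3.64 FPKM in D1240A and 5.09, 4.79 and 4.25 FPKM in F1295A. It was 6.30, 6.11 and 6.37 FPKM in WT and 0.325, 0.307 and 0.241 FPKM in TKO. All 4 groups were separate, in the order WT, F1295A, D1240A, TKO. The ratio of means to TKO was 12.1 in D1240A, 16.2 in F1295A and 21.5 in WT, and the log2 difference was 2.34, 2.72 and 3.10 in the same order, with a standard error of 0.09. These differences depend on the pseudocount because TKO is low. With 0.1 FPKM they were 3.21 in D1240A, 3.62 in F1295A and 4.03 in WT, and with 1 FPKM they were 1.80, 2.14 and 2.49 in the same order.

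ALCAM (ENSG00000170017, chr3:105366909-105576900, plus strand) stood out in 1 line only. Its level was 3.9, 4.0 and 4.1 FPKM in D1240A. It was 2.38, 2.39 and 2.36 FPKM in F1295A, 2.38, 2.29 and 2.38 FPKM in WT, and 2.54, 2.13 and 2.27 FPKM in TKO. All D1240A libraries were above all others, while the F1295A, WT and TKO libraries overlapped and their order was not resolved. The difference from TKO was 0.68 in D1240A, 0.03 in F1295A and 0.02 in WT, with a standard error of 0.07.

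**Figure D1:**
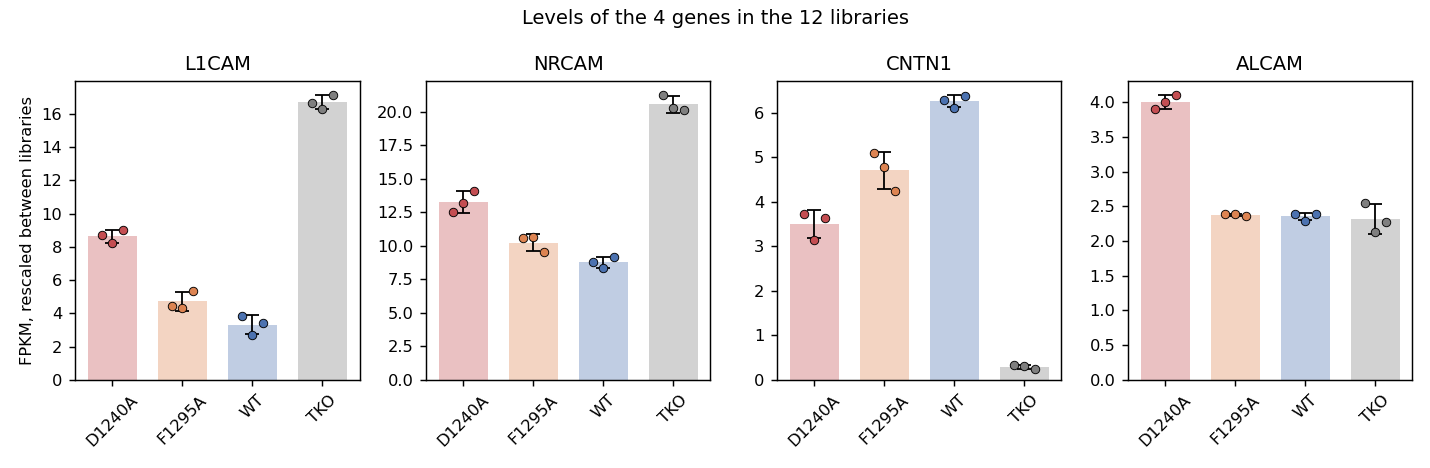
Level of L1CAM, NRCAM, CNTN1 and ALCAM in D1240A, F1295A, WT and TKO cells, in rescaled FPKM on separate axes that start at 0. Points are libraries, bars are means and whiskers are 1 SD (n = 3). L1CAM and NRCAM are highest in TKO and lowest in WT, CNTN1 is highest in WT and lowest in TKO, and ALCAM is high in D1240A.

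Set among all 14391 tested genes, the levels ranged from low to somewhat above the middle. The L1CAM mean exceeded that of 48.0% of tested genes in D1240A, 37.3% in F1295A, 32.0% in WT and 63.0% in TKO. CNTN1 exceeded 32.7% in D1240A, 37.2% in F1295A and 42.0% in WT, but only 4.09% in TKO. NRCAM exceeded 57.6% in D1240A, 52.2% in F1295A, 48.8% in WT and 67.6% in TKO. For ALCAM the values were 34.7%, 27.8%, 27.2% and 28.1% in the same order. In WT against TKO, 38 tested genes had a lower log2 difference than L1CAM and 27 had a higher one than CNTN1. The levels in that contrast were known when the genes were chosen. In D1240A, 2 members lay wholly above and 2 wholly below the TKO libraries, where 27.6% of all tested genes lay wholly above and 25% wholly below. In F1295A 1 lay above and 2 below, where 28.6% of all tested genes lay above and 27.1% below, and in WT 1 lay above and 2 below, where 30.5% lay above and 29.8% below. Nothing is read from these counts, since the choice of the genes used TKO.

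Each mutant was then compared with WT, and the mutants with each other, with limma and Benjamini-Hochberg adjustment over all tested genes. WT libraries took part in the contrast by which the genes were known, so the comparisons with WT are not independent of that choice. D1240A against F1295A compares no library of that contrast, but its p-values use a spread estimated from all 12 libraries, those of WT and TKO included. In D1240A against WT all 4 genes passed an adjusted p of 0.05, 3 higher and 1 lower, where 19.1% of all tested genes were called, 8.21% higher and 10.9% lower. L1CAM rose to 8.65 ± 0.398 FPKM in D1240A, against 3.33 ± 0.582 in WT, a difference of 1.27 ± 0.10 (SE; adjusted p = 1.4e-05). Only 62 tested genes had a higher difference in this comparison. NRCAM rose by 0.57 ± 0.06 (SE; adjusted p = 7.9e-05), to 13.3 ± 0.810 FPKM in D1240A, against 8.78 ± 0.419 in WT. ALCAM rose by 0.66 ± 0.07 (SE; adjusted p = 0.00012), to 4.0 ± 0.0973 FPKM in D1240A, against 2.35 ± 0.0541 in WT. CNTN1 changed by -0.76 ± 0.09 (SE; adjusted p = 0.00016) and averaged 3.51 ± 0.311 FPKM in D1240A and 6.26 ± 0.136 in WT. Every library of D1240A lay on the same side of every WT library for all 4 genes, as it did for 35.4% of all tested genes. The calls held when any 1 library was left out. Without D1240A replicate 2, the differences were 1.3 for L1CAM, 0.57 for NRCAM, 0.66 for ALCAM and -0.69 for CNTN1.

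F1295A differed less from WT. L1CAM and CNTN1 passed the threshold, 2 of the 4 genes, where 2.71% of all tested genes were called, 0.896% higher and 1.81% lower. L1CAM rose by 0.45 ± 0.10 (SE; adjusted p = 0.0438), with 4.72 ± 0.556 FPKM in F1295A and 3.33 ± 0.582 in WT. CNTN1 changed by -0.38 ± 0.09 (SE; adjusted p = 0.0458), with 4.71 ± 0.422 FPKM in F1295A and 6.26 ± 0.136 in WT. Both calls sit at the threshold. When 1 library was left out, each was lost in 10 of 12 fits, and the adjusted p ranged from 0.0332 to 0.136 for L1CAM and from 0.0313 to 0.154 for CNTN1. The L1CAM call was kept only without WT replicate 1 or D1240A replicate 2, and the CNTN1 call only without D1240A replicate 2 or TKO replicate 3. NRCAM differed by 0.21 ± 0.06 (SE; adjusted p = 0.0909), with all F1295A libraries above all WT libraries. The share of all tested genes with such a separation of F1295A from WT was not counted. ALCAM differed by 0.01 ± 0.07 (SE; adjusted p = 0.959).

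Between the mutants, all 4 genes were called in D1240A against F1295A, 3 higher and 1 lower, where 6.09% of all tested genes were called, 3% higher and 3.09% lower. L1CAM rose by 0.81 ± 0.10 (SE; adjusted p = 0.00176), ALCAM by 0.64 ± 0.07 (SE; adjusted p = 0.00067) and NRCAM by 0.36 ± 0.06 (SE; adjusted p = 0.00657). CNTN1 changed by -0.38 ± 0.09 (SE; adjusted p = 0.0316). The CNTN1 call was lost when any of 5 libraries was left out, with adjusted p = 0.0511 without WT replicate 2, 0.0998 without D1240A replicate 2, 0.064 without D1240A replicate 3, 0.0815 without F1295A replicate 1 and 0.0987 without F1295A replicate 2. The other 3 calls held in all 12 such fits. In the fit on these 6 libraries alone, NRCAM had an adjusted p of 0.0809 and CNTN1 of 0.133.

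**Figure D2:**
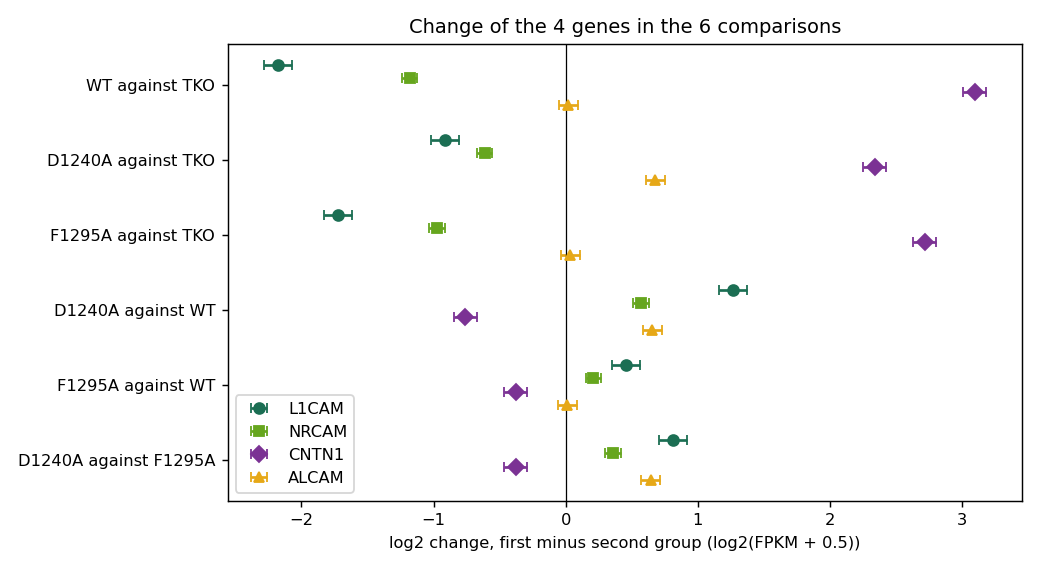
Differences of the 4 genes in the 6 pairs of groups, first minus second group, in log2(FPKM + 0.5), with standard errors of the fit as whiskers. L1CAM and NRCAM lie below 0 in each comparison with TKO and above 0 in both comparisons of a mutant with WT. CNTN1 lies on the opposite side, and ALCAM is near 0 wherever D1240A takes no part.

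Over the 12 libraries, L1CAM and NRCAM had a Pearson correlation of 0.98, L1CAM and CNTN1 of -0.93, and NRCAM and CNTN1 of -0.95. ALCAM correlated with the other members at 0.07 to 0.18. These values describe libraries that fall into 4 groups and share their scaling, and they carry no test.

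The 4 genes lie on 4 chromosomes, and their neighbourhoods differed. L1CAM is on X, where the 50 nearest tested genes, over 4.62 Mb, had a median log2 difference from TKO of -0.47 in D1240A, -0.46 in F1295A and -0.46 in WT. The medians over the 469 tested genes of the X chromosome were -0.43 in all 3. In WT, 35 of those 50 neighbours were called lower than TKO and 5 higher. L1CAM lay below all 50 in WT against TKO, but in D1240A against TKO 5 of the 50 were as low or lower. With the window median subtracted, the L1CAM difference from TKO was -0.41 in D1240A, -1.28 in F1295A and -1.73 in WT. The shift of the X chromosome was about the same in every vector line, and in D1240A against WT its window median was -0.01, against 1.27 for L1CAM. The part of the regional shift in the differences from TKO was not tested further.

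AVPR2, the vasopressin V2 receptor gene, was at 1.29, 1.21 and 1.01 FPKM in D1240A, 0.928, 0.712 and 0.877 in F1295A, 0.557, 0.760 and 0.827 in WT, and 4.74, 3.49 and 4.33 in TKO. It is the nearest tested gene upstream of L1CAM and had the same order of group means as L1CAM. Its rise of 0.46 in D1240A against WT (limma, adjusted p = 0.034) was lost without WT replicate 1 (0.128), WT replicate 2 (0.0635), D1240A replicate 1 (0.0867) or D1240A replicate 2 (0.0786). Of 4 other neighbours, IDH3G and NAA10 fell in every vector line against TKO, SSR4 fell in D1240A against TKO, and PLXNB3 passed no test. SSR4 also fell in D1240A against WT (-0.28), opposite to L1CAM. The limma adjusted p of that fall was 0.00067 to 0.0147 when 1 library was left out.

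Around NRCAM the 50-gene window, 17.5 Mb on chromosome 7, had medians of -0.22 against TKO in each vector line. NRCAM lay below all 50 in F1295A and WT, and 4 of the 50 were as low or lower in D1240A. With the window median subtracted, its difference from TKO was -0.39 in D1240A, -0.74 in F1295A and -0.97 in WT. LAMB1, a laminin chain gene next to NRCAM, went the other way against TKO, by 1.91 in D1240A (adjusted p = 1.8e-06), 1.91 in F1295A (adjusted p = 1.6e-06) and 1.88 in WT (adjusted p = 1.6e-06). The window medians around CNTN1 and ALCAM stayed between -0.05 and 0.13 in all 6 comparisons. CNTN1 was above all 50 neighbours in each comparison with TKO. In D1240A against WT, L1CAM, NRCAM and ALCAM were each above all 50 of their neighbours, and 1 of the 50 around CNTN1 was as low as CNTN1 or lower.

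**Figure D3:**
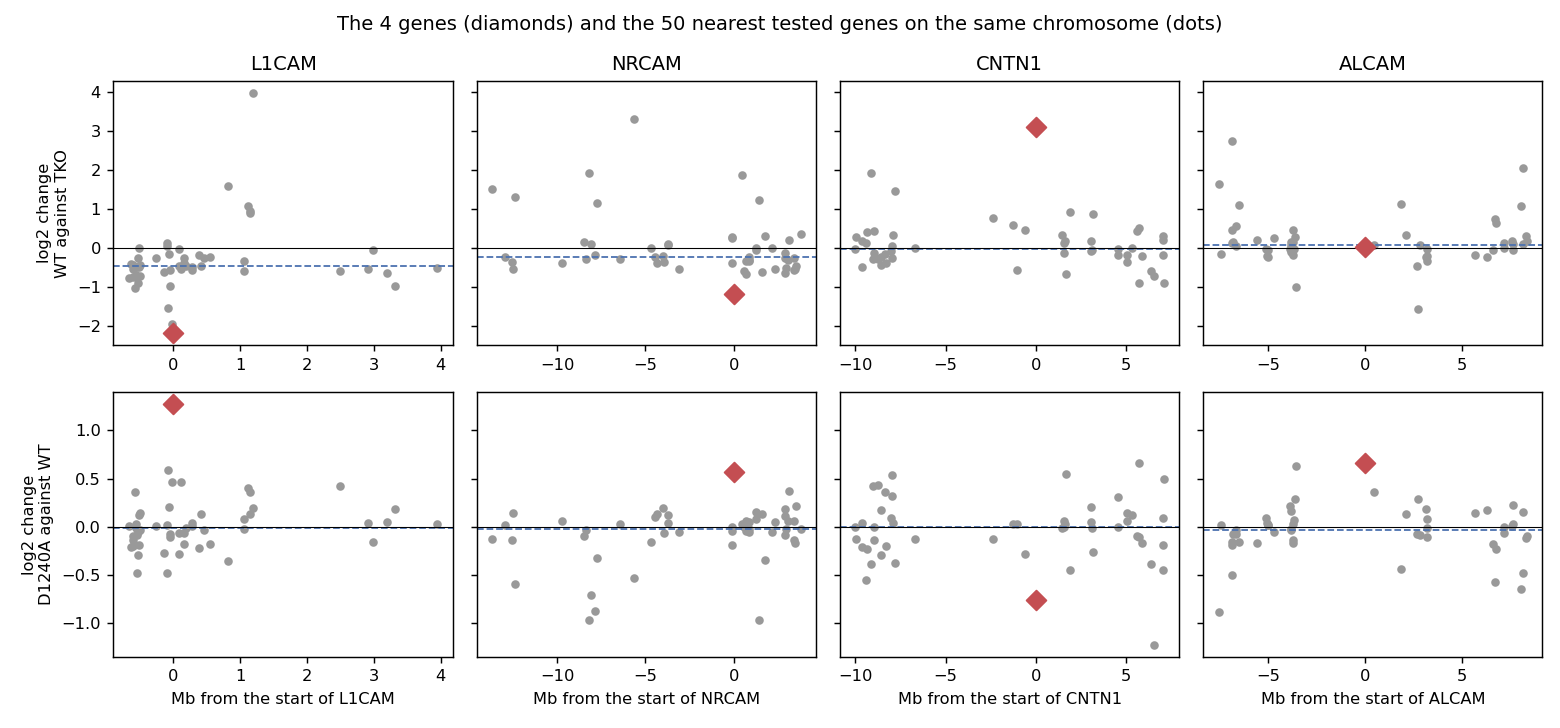
Log2 difference of each gene (diamond) and of the 50 nearest tested genes on its chromosome (dots) against distance from the gene's start, in WT against TKO above and D1240A against WT below. The dashed line is the median of the 50. The L1CAM window lies mostly below 0 in WT against TKO, with a median of -0.46, and is centred near 0 in D1240A against WT.

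Overlapping annotation touched L1CAM and CNTN1 only. L1CAM overlaps the protein-coding gene U52112.1 on its own strand, for which the table gave no value here, and LCA10 on the opposite strand, which reached at most 0.04 FPKM. CNTN1 overlaps a pseudogene and an intronic transcript that reached at most 0.02 FPKM. The sources used here do not say whether counting used strand. NRCAM and ALCAM overlap no other gene in GENCODE 29.

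Most close relatives of the 4 genes were silent or nearly so. Of 13 other genes of the L1 family, contactins and contactin-associated proteins, 2 passed the filter, CNTN5 and CNTNAP1. CHL1, CNTN3, CNTN6 and CNTNAP5 were listed at 0 in every library. The remaining L1-family member, neurofascin (NFASC), did not exceed 0.03 FPKM. CNTNAP1, which encodes the axonal CASPR protein that pairs with CNTN1, had the order of L1CAM and not that of CNTN1. It was at 1.99, 2.12 and 2.13 FPKM in D1240A, 1.93, 1.73 and 0.986 in F1295A, 1.46, 1.04 and 1.46 in WT, and 4.22, 3.86 and 3.96 in TKO. It fell against TKO in D1240A (by 0.81, adjusted p = 0.00184), F1295A (by 1.17, adjusted p = 0.00011) and WT (by 1.32, adjusted p = 3.6e-05). The D1240A and WT libraries did not overlap, but the call between them (0.51, adjusted p = 0.048) was lost in 10 of 12 fits that left out 1 library, with adjusted p up to 0.16. CNTN5 rose against TKO, by 0.51 in D1240A (adjusted p = 0.00016), 0.35 in F1295A (adjusted p = 0.00224) and 0.30 in WT (adjusted p = 0.00541). CNTN4, too low to be tested, was at 0.0595, 0.0369 and 0.189 FPKM in D1240A, 0.259, 0.161 and 0.279 in F1295A, 0.371, 0.415 and 0.652 in WT, and 0, 0 and 0.00963 in TKO.

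The wider setting of the 4 genes was read from 7 lists of 143 other genes, of which 71 were tested. In D1240A against WT, 10 rose and 13 fell, 32.4% of the 71 against 19.1% of all tested genes, and the median difference was -0.00, against 0.01 over all tested genes. Without rescaling the counts were 2 higher (NOTCH1 and LEF1) and 11 lower, and without D1240A replicate 2 they were 6 and 11. The higher count was also 5 or 6 without WT replicate 1, WT replicate 2 or D1240A replicate 3. In F1295A against WT, 1 rose (PSENEN, a gamma-secretase subunit) and 3 fell (ITGB1, SHTN1 and AXIN2), 5.63% against 2.71% of all tested genes, and leaving out any 1 WT or F1295A library left 1 gene lower. In D1240A against F1295A, 4 rose (NOTCH1, RANBP9, TENM3 and LEF1) and 1 fell (CADM1), 7.04% against 6.09%, and the higher count was 1 or 2 in 9 of 12 fits that left out 1 library. Against TKO, 22 rose and 17 fell in D1240A (54.9%, against 44.5% of all tested genes, 23.3% higher and 21.2% lower), 26 and 17 in F1295A (60.6%, against 45.7%, 23.9% higher and 21.8% lower), and 28 and 18 in WT (64.8%, against 49.7%, 25.8% higher and 23.9% lower). Without rescaling, the D1240A counts against TKO were 14 and 22, and the F1295A counts were 18 and 17.

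Of 12 tested genes for other immunoglobulin-type adhesion molecules, 5 fell and none rose in D1240A against WT, 41.7% called against 19.1% of all tested genes, of which 10.9% were lower and 8.21% higher. None of the 12 was called in F1295A against WT. PTPRD, a receptor tyrosine phosphatase of synapses, was at 1.05 ± 0.338 FPKM in D1240A, 1.96 ± 0.713 in F1295A, 2.75 ± 0.261 in WT and 0.163 ± 0.0381 in TKO. It fell by 1.09 in D1240A against WT (adjusted p = 0.00484), and its group means had the order of CNTN1. PTPRF fell by 0.26 in D1240A against WT (adjusted p = 0.00608) and CADM1, an adhesion molecule that binds across cells, by 0.31 (adjusted p = 0.00046).

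Among 12 tested binding partners, 1 rose and 2 fell in D1240A against WT, 25% against 19.1% of all tested genes. NOTCH1, a receptor reported to be bound by contactins, rose by 0.48 (adjusted p = 0.00126), to 3.89 ± 0.114 FPKM in D1240A, against 2.65 ± 0.0892 in WT. CD9, a tetraspanin found in complexes with ALCAM and ADAM17, fell by 0.65 (adjusted p = 0.00277), to 3.54 ± 0.421 FPKM in D1240A, against 5.83 ± 0.640 in WT. ITGB1, the integrin beta 1 chain, fell by 0.26 in D1240A against WT (adjusted p = 0.00095). Its fall in F1295A against WT (by 0.20, adjusted p = 0.0203) was lost when any 1 of the 6 libraries compared was left out, with adjusted p up to 0.0835. NRP1, a semaphorin receptor that pairs with L1CAM, had 0.271 to 0.555 FPKM in the vector libraries, against a listed value of 0 in each TKO library.

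Of 17 tested cytoplasmic linkers, 3 rose (EZR, MSN and RANBP9) and 1 fell (SHTN1) in D1240A against WT, 23.5% against 19.1% of all tested genes. SHTN1, shootin, couples L1CAM to the actin skeleton. It was at 1.32 ± 0.156 FPKM in D1240A, 1.35 ± 0.173 in F1295A, 2.81 ± 0.0834 in WT and 0.163 ± 0.0434 in TKO. It fell against WT by 0.87 in D1240A (adjusted p = 0.00031) and by 0.85 in F1295A (adjusted p = 0.00249), and the mutants differed from each other by -0.02 (adjusted p = 0.947). RANBP9, which binds the L1CAM tail, rose by 0.22 in D1240A against WT (adjusted p = 0.0032), a call that was lost without rescaling (0.1, adjusted p = 0.468). MSN, moesin, rose by 0.12 (adjusted p = 0.0256), a call that was lost without WT replicate 2 (0.0647), WT replicate 3 (0.0865), D1240A replicate 2 (0.0671) or D1240A replicate 3 (0.0727), and that had a difference of 0 without rescaling. EZR rose by 0.13, a call that was also lost without rescaling.

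The 11 proteases and gamma-secretase genes that cut or process such molecules were all tested. In D1240A against WT 2 rose (NCSTN and PSENEN) and 2 fell (PCSK5 and APH1A), 36.4% against 19.1% of all tested genes. Both rises were lost without rescaling. ADAM10, the main sheddase of L1CAM, was at 68.1 ± 2.93 FPKM in D1240A, 69.0 ± 1.54 in F1295A, 69.2 ± 1.26 in WT and 82.4 ± 2.38 in TKO. It fell against TKO, by 0.27 in D1240A, 0.25 in F1295A and 0.25 in WT, and the mutants did not pass the test against WT (adjusted p = 0.701 in D1240A and 0.976 in F1295A). PCSK5, a proprotein convertase that can cleave L1-type molecules, was at 0.343 ± 0.0739 FPKM in D1240A, 0.463 ± 0.154 in F1295A, 0.904 ± 0.00739 in WT and 0.118 ± 0.0562 in TKO. It passed the filter of 0.5 FPKM in 3 libraries only through its high WT libraries. Its called fall of 0.74 in D1240A against WT was therefore favoured by the filter and is a description only.

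Of 5 tested synaptic adhesion genes of other types, ADGRL1, SLITRK5 and TENM3 rose in each vector line against TKO and none was called in D1240A or F1295A against WT. SLITRK5 was at 0.462 ± 0.0218 FPKM in D1240A, 0.573 ± 0.00465 in F1295A, 0.676 ± 0.0190 in WT and 0.0256 ± 0.00560 in TKO. It passed the filter of 0.5 FPKM only through WT and F1295A, so its rises against TKO were favoured by the filter. With no filter, limma called it lower in D1240A against WT (-0.29, adjusted p = 0.031). ADGRL1, a latrophilin, was at 5.52 ± 1.11 FPKM in D1240A, 6.22 ± 0.605 in F1295A, 5.63 ± 0.578 in WT and 1.38 ± 0.245 in TKO. It did not pass the test against WT in D1240A (adjusted p = 0.884) or in F1295A (adjusted p = 0.718).

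REST represses L1CAM and other neuronal genes, and catenin-TCF complexes are known to activate L1CAM and NRCAM in colon cancer cells. Of 12 tested genes for these factors, 3 rose (REST, CTNNB1 and LEF1) and 3 fell (HDAC2, KDM1A and AXIN2) in D1240A against WT, 50% against 19.1% of all tested genes. The REST and CTNNB1 calls were lost without rescaling, while the LEF1 call was kept. LEF1 was at 16.6 ± 0.961 FPKM in D1240A, 12.6 ± 0.751 in F1295A, 11.7 ± 0.362 in WT and 35.4 ± 1.2 in TKO. It rose by 0.49 in D1240A against WT (adjusted p = 0.00012), and its group means had the order of L1CAM and NRCAM. AXIN2, a feedback target of the same pathway, was at 2.28 ± 0.107 FPKM in D1240A, 2.32 ± 0.113 in F1295A, 3.20 ± 0.357 in WT and 2.42 ± 0.192 in TKO, and it fell by 0.41 in D1240A against WT (adjusted p = 0.00869). Its fall in F1295A against WT (by 0.39, adjusted p = 0.0437) was lost in 10 of 12 fits that left out 1 library, with adjusted p up to 0.166.

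**Figure D4:**
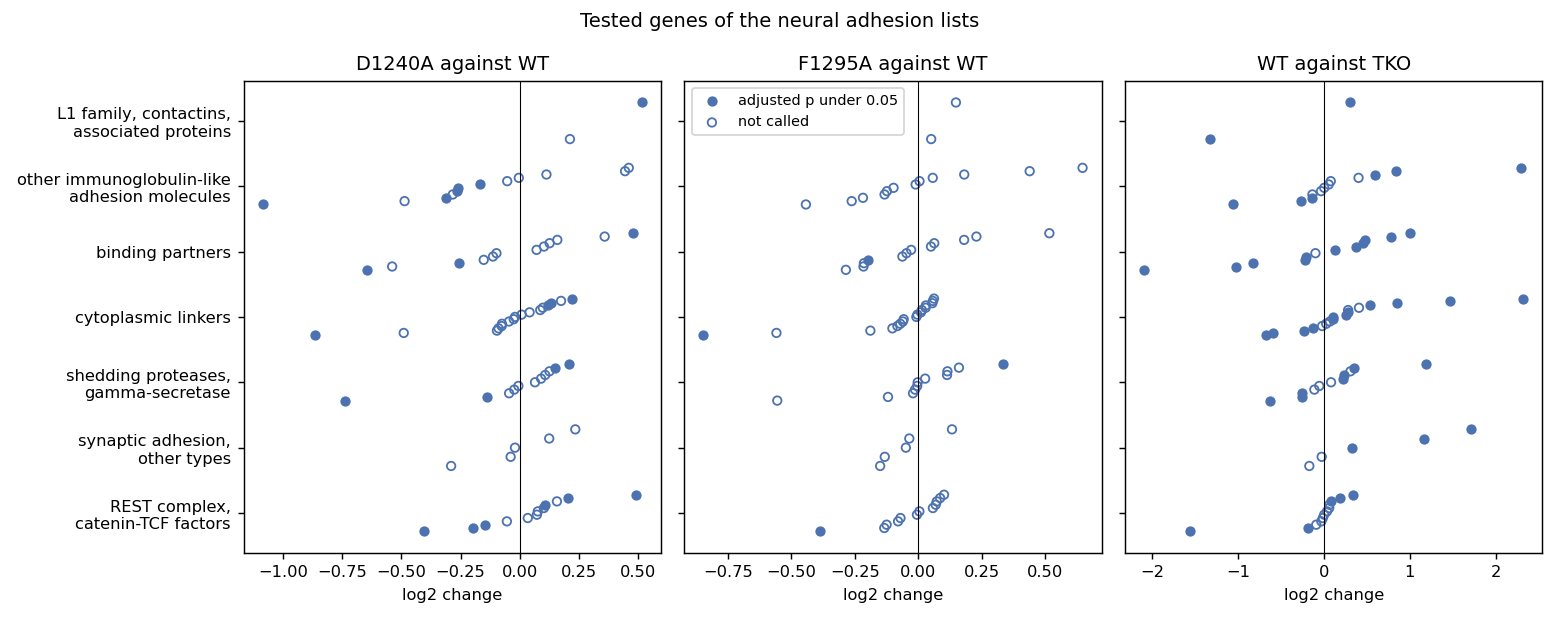
Log2 differences of the tested genes of the 7 lists in D1240A against WT, F1295A against WT and WT against TKO, filled where called. The axes differ in range. Calls lie on both sides of 0 in D1240A against WT, with 10 genes higher and 13 lower, and are few in F1295A against WT.

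The genes whose pattern was most like each member were ranked by Pearson correlation of log2(FPKM + 0.5) over the 12 libraries, among tested genes that averaged 2 FPKM or more. For L1CAM they were PDE4DIP (0.988), RUNX3 (0.988), LINC01963 (0.985), LSP1 (0.985) and CD82 (0.984). PDE4DIP was at 105 ± 1.95 FPKM in D1240A, 74.6 ± 0.453 in F1295A, 57.7 ± 0.978 in WT and 154 ± 1.92 in TKO. For NRCAM they were CSF2RB (0.992), SUPT16H (0.990), CCDC28B (0.989), CD82 (0.989) and KIAA1549L (0.987), so CD82, a tetraspanin, was common to both. CD82 was at 13.9 ± 0.198 FPKM in D1240A, 9.11 ± 0.125 in F1295A, 6.97 ± 0.223 in WT and 28.4 ± 1.79 in TKO. For CNTN1 they were SCD (0.997), SEC24D (0.997), HERC5 (0.997), PERP (0.996) and DHX32 (0.996). PERP, a gene of cell junctions, was at 3.57 ± 0.276 FPKM in D1240A, 4.64 ± 0.203 in F1295A, 6.22 ± 0.217 in WT and 0.480 ± 0.0559 in TKO, close to CNTN1 in level as well as pattern. For ALCAM they were TNFAIP3 (0.955), DUSP10 (0.955), DDAH2 (0.953), BIRC3 (0.938) and PPP4R3B (0.934). BIRC3, an inhibitor of apoptosis, was at 131 ± 5.05 FPKM in D1240A, 98.0 ± 1.87 in F1295A, 90.4 ± 1.12 in WT and 99.3 ± 1.80 in TKO.

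**Figure D5:**
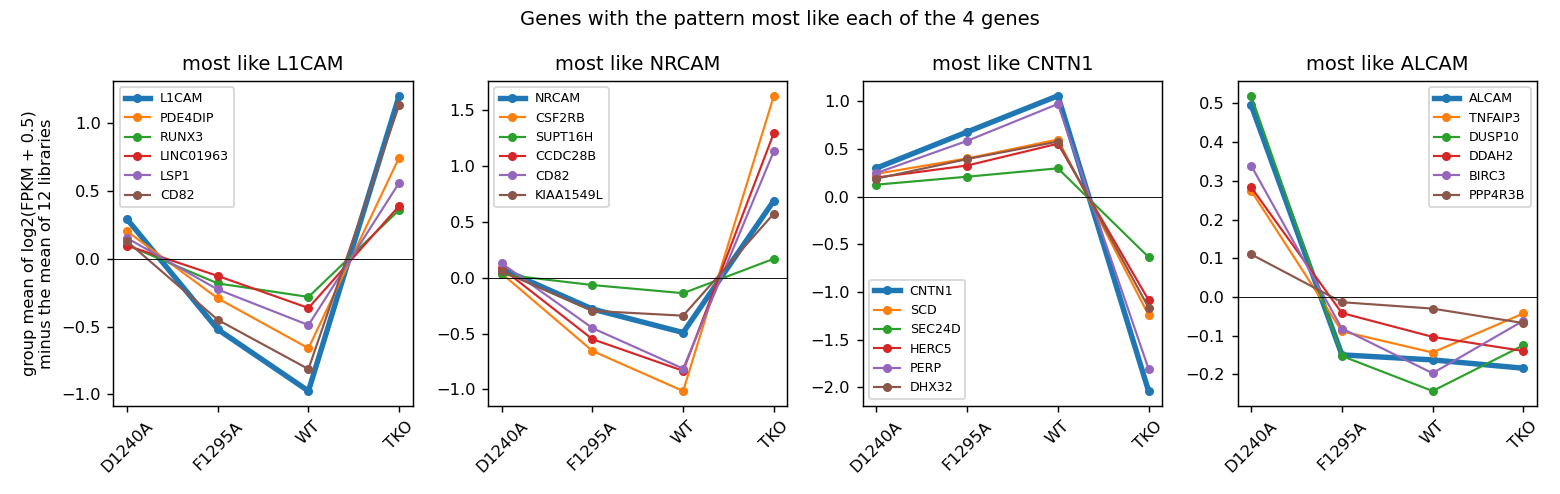
Group means of log2(FPKM + 0.5), as deviations from the mean of the 12 libraries, for each of the 4 genes (thick line) and the 5 genes with the highest correlation with it. Lines join groups for legibility and stand for no order in time or dose. The genes like L1CAM and NRCAM peak in TKO with their lowest point in WT, those like CNTN1 have their lowest point in TKO, and those like ALCAM peak in D1240A.

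All 9 plasma cell markers reached 1 FPKM in at least 1 library, and their summed level was 3820 to 4147 FPKM in D1240A, 4637 to 5045 in F1295A, 4680 to 4912 in WT and 2337 to 2550 in TKO. JCHAIN, the joining chain of secreted antibodies, made up most of that sum, at 3145 ± 155 FPKM in D1240A, 3913 ± 202 in F1295A, 3787 ± 114 in WT and 1731 ± 109 in TKO. SDC1 (CD138), a defining surface marker of plasma cells, was at 0.278 ± 0.130 FPKM in D1240A, 0.250 ± 0.101 in F1295A, 0.235 ± 0.0742 in WT and 4.01 ± 0.242 in TKO. CD38 was at 0.545 ± 0.284 FPKM in D1240A, 0.280 ± 0.143 in F1295A, 0.349 ± 0.0335 in WT and 0.850 ± 0.302 in TKO, so both markers were under 1 FPKM in every vector library. Neuron markers were low. Of 10, 4 reached 1 FPKM in any library, ELAVL4 and NEFM were listed at 0 throughout, and the highest value was 4.23 FPKM for SYT1. Their summed level was 6.79 to 7.19 FPKM in D1240A, 6.34 to 6.56 in F1295A, 6.80 to 7.22 in WT and 5.58 to 6.23 in TKO. SNAP25, a synaptic fusion protein, was at 0.345 ± 0.107 FPKM in D1240A, 0.523 ± 0.00964 in F1295A, 0.980 ± 0.115 in WT and 0.0288 ± 0.0346 in TKO, the order of group means of CNTN1. MAP2 was at 0.581 ± 0.198 FPKM in D1240A, 0.576 ± 0.148 in F1295A, 0.992 ± 0.0919 in WT and 0.121 ± 0.0551 in TKO. TUBB3 was at 1.63 ± 0.233 FPKM in D1240A, 1.42 ± 0.199 in F1295A, 1.23 ± 0.0529 in WT and 1.85 ± 0.0535 in TKO. Its group means had the order of L1CAM and not that of CNTN1. SYT1 was at 4.13 ± 0.0930 FPKM in D1240A, 3.57 ± 0.0879 in F1295A, 3.54 ± 0.350 in WT and 3.58 ± 0.262 in TKO, so the neuron markers did not share 1 order. Glial markers summed to 1.57 to 2.10 FPKM in D1240A, 1.58 to 2.38 in F1295A, 1.45 to 2.12 in WT and 7.02 to 7.97 in TKO. MBP alone of the 6 reached 1 FPKM and AQP4 was listed at 0. Of 5 markers each, 2 reached 1 FPKM for T cells, none for myeloid cells, 2 for epithelium and 3 for fibroblasts and endothelium. The part of these markers in the levels of the 4 genes was not tested.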

How the data were processed

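Poly(A) RNA of 12 libraries was sequenced, per the labels' protocols. Per the submitters' processing notes, Trimmomatic 0.36, FastQC 0.11.4, STAR 2.7.9a, RSEM 1.3.1, DESeq2 and the build GRCh38 were used. The deposited table holds 1 FPKM value per feature and library, a unit read from its values. The sources used here do not give the annotation release, strand setting or depth. Of its features, 94.2% have an identifier in GENCODE 29, used for names and coordinates.

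From these FPKM, 7089 structural RNA features were left out, libraries were rescaled by the mean log2 ratio to the average library, trimmed by 30% on each side, over genes averaging 1 FPKM or more, and genes with at least 0.5 FPKM in 3 libraries were kept. limma 3.58.1 (R 4.3.3) fitted log2(FPKM + 0.5) in 1 model over the 12 libraries, with a term for group alone and a mean-variance trend, so that groups share the spread. The threshold for a call was 0.05 for the p adjusted by Benjamini-Hochberg across the whole tested set, and "rose" and "fell" mean called. A window is the 50 tested genes nearest to a member. Members and lists were chosen with earlier results of these data known, so no p was adjusted over a list alone. Beside the members and NSD2, the named genes were the L1 and contactin list, the 4 smallest adjusted p of each other list, 3 tested neighbours on each side and the 5 genes most alike; the text does not describe every gene of these sets, and 1 neighbour of L1CAM is not reported here. List genes outside these were named after their values were seen, where a count was small. Promoters are RefSeq sequences, GRCh38.p14, matched for all 4 members. The fit was tested on simulated data. Figures were drawn with Python 3.11.15 and matplotlib 3.10.9. The alternatives tried are given in the closing section.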

Additional observations from a re-analysis of the deposited data

Results flagged for a closer look

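Ribosomal RNA features, which take no part in the comparisons, held 51.36% of the FPKM sum of D1240A replicate 2, above the 0.133% to 0.995% of the other 11 libraries. Its log2 scaling factor was -0.299, against -0.0049 to 0.0644 for the others. Its rescaled levels of L1CAM and CNTN1 were the lowest of the 3 D1240A libraries, at 8.23 and 3.15 FPKM, and those of NRCAM and ALCAM lay between the other D1240A libraries. Without it, the differences of all 4 genes in D1240A against WT stayed called, with adjusted p from 7.1e-05 to 0.000725, and the CNTN1 call in D1240A against F1295A was lost. Its part in these values was not tested further.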

How the results depend on the processing

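The 4 calls of D1240A against WT, and those of L1CAM and ALCAM in D1240A against F1295A, held under every alternative run, and no called difference of the 4 genes changed direction. With the values as deposited, the differences from TKO in D1240A were -1.05 for L1CAM, -0.76 for NRCAM, 2.24 for CNTN1 and 0.55 for ALCAM. There, 1608 genes were called in D1240A against WT, 89 in F1295A against WT and 63 in D1240A against F1295A. The list genes called higher were 14 in D1240A against TKO, 2 in D1240A against WT, 0 in F1295A against WT (1 lower) and 0 in D1240A against F1295A (0 lower). Calls were lost for L1CAM (0.43) and CNTN1 (-0.41) in F1295A against WT and for NRCAM (0.27) and CNTN1 (-0.46) in D1240A against F1295A, and MSN, called in D1240A against WT, had a difference that was slightly negative and rounds to 0.

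With no filter, the calls of L1CAM (0.45) and CNTN1 (-0.38) in F1295A against WT and of CNTN1 (-0.38) in D1240A against F1295A were lost. In D1240A against F1295A, 433 genes were then called, with 1 list gene higher and 0 lower. The filter at 1 FPKM gave 2 list genes lower there. A pseudocount of 0.1 gave CNTN1 against TKO 3.21 in D1240A, 3.62 in F1295A and 4.03 in WT, and ALCAM 0.77 in D1240A against TKO. It ended the CNTN1 calls in F1295A against WT (-0.41) and D1240A against F1295A (-0.42). A pseudocount of 1 gave CNTN1 1.8 in D1240A, 2.14 in F1295A and 2.49 in WT, and ALCAM 0.59 in D1240A. Library weights called 612 genes in F1295A against WT with 5 list genes lower, added the NRCAM call there (0.22), and left 2 list genes higher in D1240A against F1295A.

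Window medians removed gave differences from TKO of -0.41 in D1240A, -1.28 in F1295A and -1.73 in WT for L1CAM, of -0.39, -0.74 and -0.97 for NRCAM, and of -0.07 in F1295A and -0.08 in WT for ALCAM, and ended the CNTN1 call in F1295A against WT (-0.33). With only the compared groups, 1771 genes were called in D1240A against WT, 255 in F1295A against WT and 91 in D1240A against F1295A, the last with 0 list genes higher and 0 lower. That fit ended the calls of L1CAM (0.45) and CNTN1 (-0.38) in F1295A against WT, and of NRCAM (0.36) and CNTN1 (-0.38) in D1240A against F1295A. The cause of these differences was not tested.

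Replicate numbers did not pair the libraries: over 18 same-numbered pairs the correlation of deviations from group means ran from -0.053 to 0.085. The replicate block called 525 genes in D1240A against F1295A, with 2 list genes higher and 0 lower, and 5 list genes higher in D1240A against WT, and ended the CNTN1 call in F1295A against WT (-0.38).

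With 1 library left out, called genes ranged from 1733 to 2833 in D1240A against WT, 148 to 516 in F1295A against WT and 310 to 1223 in D1240A against F1295A. In those fits the L1CAM difference in F1295A against WT ran from 0.33 to 0.55, that of CNTN1 from -0.43 to -0.31, and that of CNTN1 in D1240A against F1295A from -0.44 to -0.31. List genes called higher ranged from 5 to 10 in D1240A against WT and from 1 to 4 in D1240A against F1295A, and those called lower from 1 to 4 in F1295A against WT and from 0 to 3 in D1240A against F1295A.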
